A study of Mus musculus with 2 samples.

Results

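The regions described here are ac4C peaks of the mouse uterus at places where the annotated spans of protein-coding genes overlap. A peak was taken when its summit lay inside the RefSeq spans of 2 or more protein-coding genes on GRCm38, introns included. Of 21192 peaks in the authors' list, 408 met this rule (1.93%, 95% Wilson interval 1.75 to 2.12%), and 19484 had a summit in exactly 1 protein-coding gene. The rule used positions alone, so the fold enrichment and width of these peaks were not part of the choice.

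Whole uteri were collected from wild-type animals at gestational day 4 and profiled by acRIP-seq, in which an antibody to N4-acetylcytidine (ac4C) enriches RNA fragments that carry this mark. The series holds a single immunoprecipitated library and a single input library, both made from polyA RNA, and together they gave 1 list of peaks. No group had replicates, so no value below has a replicate check and no p-value was calculated. The mouse strain and age and any pooling of animals are not given in the sources used here. A peak list holds no expression level, so the labelled tissue was not checked against marker genes.

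N4-acetylcytidine is an acetylated form of cytidine that the enzyme NAT10 places on transfer RNA, ribosomal RNA and some messenger RNAs. Mammalian genes can share genomic sequence in several ways. A short gene can sit inside an intron of a longer host gene, neighbours can run into each other at their 3′ ends (tail to tail) or start inside each other (head to head), and clustered families such as the gamma protocadherins splice many alternative first exons to the same last exons. When both strands of a stretch are transcribed, a peak without a strand can come from either gene. The deposited list gave a strand for 0 peaks, although the labels name a strand-keeping library kit, so all pairs below are named by both genes and no peak was assigned to 1 of them.

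At head-to-head pairs a peak can cover the start of a gene. In all, 40 of the 408 peaks touched at least 1 promoter window of their own genes. The same count was not made for peaks in 1 gene, so no share stands beside it. Wholly inside the peak lay 7 windows. Of these 7, the 4 at head-to-head pairs are printed below because a start of the named gene and the bases before it lie inside the peak. Each is 280 bases of GRCm38.p6 from RefSeq, read on the strand of the named gene. The 250 bases before that start are in lower case and the first 30 bases after it in capitals.
Mesd: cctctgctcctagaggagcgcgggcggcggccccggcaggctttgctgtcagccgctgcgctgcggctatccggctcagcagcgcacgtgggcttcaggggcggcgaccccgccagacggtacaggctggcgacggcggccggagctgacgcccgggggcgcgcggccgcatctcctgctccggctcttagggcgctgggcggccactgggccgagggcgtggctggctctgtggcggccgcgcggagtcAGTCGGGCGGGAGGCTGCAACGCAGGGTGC
Erbin: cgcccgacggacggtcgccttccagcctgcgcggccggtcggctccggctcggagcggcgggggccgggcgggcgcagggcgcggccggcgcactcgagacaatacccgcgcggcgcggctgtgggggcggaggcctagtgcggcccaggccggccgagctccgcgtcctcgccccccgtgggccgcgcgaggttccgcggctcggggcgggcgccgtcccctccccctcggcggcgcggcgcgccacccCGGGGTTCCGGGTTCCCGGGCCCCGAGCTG
Mrpl48: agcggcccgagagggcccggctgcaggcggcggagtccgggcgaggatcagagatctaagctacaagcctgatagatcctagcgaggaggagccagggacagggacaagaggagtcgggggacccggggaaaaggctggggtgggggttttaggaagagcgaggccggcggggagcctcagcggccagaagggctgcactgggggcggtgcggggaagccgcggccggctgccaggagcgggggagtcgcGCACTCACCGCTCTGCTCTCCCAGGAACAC
Gabpa: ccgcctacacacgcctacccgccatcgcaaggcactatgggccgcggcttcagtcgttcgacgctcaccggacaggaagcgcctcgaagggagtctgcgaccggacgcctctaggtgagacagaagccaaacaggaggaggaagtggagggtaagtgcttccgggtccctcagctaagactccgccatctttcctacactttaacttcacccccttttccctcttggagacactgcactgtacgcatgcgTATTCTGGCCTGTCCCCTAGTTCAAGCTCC
The Mesd window is chr7:83883616-83883895 on the plus strand and belongs to the pair Tlnrd1/Mesd. The Erbin window, chr13:103920557-103920836, is on the minus strand and belongs to Erbin/D130037M23Rik. The Mrpl48 window, chr7:100608272-100608551, is on the minus strand and belongs to Mrpl48/Rab6a. The Gabpa window, chr16:84834874-84835153, is on the plus strand and belongs to Atp5j/Gabpa. The RefSeq span of Gabpa begins at 84834891, inside this window. The start used for the window is therefore a later one, and most of its lower-case bases lie within the span. The other windows inside a peak were those of 4933428G20Rik, Gm40453 and Fkbp2.

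All 4 printed windows were rich in G and C, which made up 76.4% of the Mesd window, 83.6% of Erbin, 69.6% of Mrpl48 and 58.9% of Gabpa, against a median of 52.5% over 32851 RefSeq promoter windows of the same length. Cytidine on the strand of the gene made up 33.9%, 41.1%, 25.7% and 33.6% of the 4 windows, against a median of 25.7%. The windows inside a peak that are not printed were more mixed. G and C made up 73.9% of 4933428G20Rik, 63.6% of Fkbp2 and 48.2% of Gm40453, and cytidine 35.7%, 21.4% and 15.7%. A run of 4 CXX triplets, the sequence CNNCNNCNNCNN that has been linked with ac4C, was looked for on both strands with overlapping matches allowed. It was found in all 7 windows inside a peak, and in 86.3% of the 32851 windows. On the strand of the gene it began 12 times in the Mesd window, 10 times in Erbin, 1 time in Mrpl48 and 3 times in Gabpa. On the other strand it began 10, 15, 15 and 3 times, and the peaks carry no strand. The usual number of matches per promoter window was not calculated, so these counts have no background. The summits lay 151 bases after the start of Mesd, 169 after that of Erbin and 243 after that of Mrpl48. At Atp5j/Gabpa the summit lay before the Gabpa start used for the window, at -98 bases, but inside the Gabpa span. Mrpl48 encodes a protein of the mitochondrial ribosome and Rab6a a GTPase of the Golgi, and their peak of 957 bp stood at 7.61-fold (95% interval 4.61 to 11.9) over the caller's background. Gabpa is a transcription factor of the ETS family and Atp5j a subunit of the mitochondrial ATP synthase, and their peak of 507 bp stood at 7.16-fold (4.34 to 11.2). These pairs were chosen after their values were seen.

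The 408 peaks fell in 274 combinations of genes and involved 542 protein-coding genes. Combinations of 2 genes made up 263, and 11 held 3 or more genes. Most combinations had a single peak (199), 48 had 2 peaks and 27 had 3 or more, with 9 as the most. For 350 of the 542 genes the only peaks were in shared sequence, as no summit lay in a stretch that was theirs alone. A gene nested in another has no stretch of its own, so its place in this count was fixed by position. Of the 263 pairs, both genes held peaks of their own elsewhere in 33, a single gene did in 133 and neither did in 97. All 33 were end overlaps, since the inner gene of the 96 nested pairs cannot hold a peak of its own. Genes without a peak of their own could still hold several shared peaks, as Npcd did with 3 in Nptxr and 3 in Cbx6, pairs named after their values were seen. The Npcd span begins where that of Nptxr begins and ends where that of Cbx6 ends. Of its 47983 bp, 19188 bp were its own alone, so such a host is partly made of the spans counted as nested in it.

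Shared sequence was a small part of the gene space. Protein-coding spans on the assembled chromosomes covered 1020 Mb with 1 gene and 11.8 Mb with 2 or more, or 1.15% of the bases, while 2.05% of the summits inside protein-coding genes lay there. That is 34.5 summits per Mb of shared sequence, against 19.1 per Mb where 1 gene lay alone. Without the protocadherin clusters the shared sequence held 36.1 per Mb. These densities are over whole spans and were not matched for exon content or transcript level.

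The arrangement of the genes split the peaks into 215 at end overlaps (166 pairs), 176 in nested genes (96 pairs), 2 in a pair with identical spans (Chtf8/Derpc) and 15 in sets of 3 or more genes. Strand was read from the RefSeq promoter table, which had an entry for 17492 of 21900 protein-coding genes and 427 of the 542 here. Among end overlaps with both strands known, 97 peaks (70 pairs) were tail to tail, 39 peaks (39 pairs) head to head and 16 peaks (12 pairs) on the same strand. Nested genes of known strand lay on opposite strands for 86 peaks (41 pairs) and on the same strand for 37 peaks (28 pairs). A further 63 peaks at end overlaps and 53 in nested genes lacked the strand of at least 1 gene. Opposite strands were more frequent among peaks of known strand in both classes, and also among all pairs of the gene table outside the protocadherin clusters. That table held 523 tail-to-tail, 458 head-to-head and 100 same-strand end overlaps. Its nested pairs lay on opposite strands in 230 cases and on the same strand in 150.

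To set these counts against the gene table, all overlapping pairs of protein-coding genes outside the protocadherin clusters were listed, whether or not they held a peak. Of 2191 such pairs, 268 (12.2%, 10.9 to 13.7%) had a summit in the shared stretch. The share was 15.6% (12.9 to 18.6%) for 617 nested pairs and 10.9% (9.44 to 12.5%) for 1571 end overlaps. Tail-to-tail pairs held a summit in 72 of 523 cases (13.8%, 11.1 to 16.98%) and head-to-head pairs in 41 of 458 (8.95%, 6.67 to 11.9%), intervals that overlap. Nested genes had 41 of 230 pairs with a summit on opposite strands (17.8%) and 28 of 150 on the same strand (18.7%). Shared stretches with a summit were longer, with a median of 3388 bp against 1128 bp over all 2191 pairs, and this length was not matched between arrangements.

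**Figure D1:**
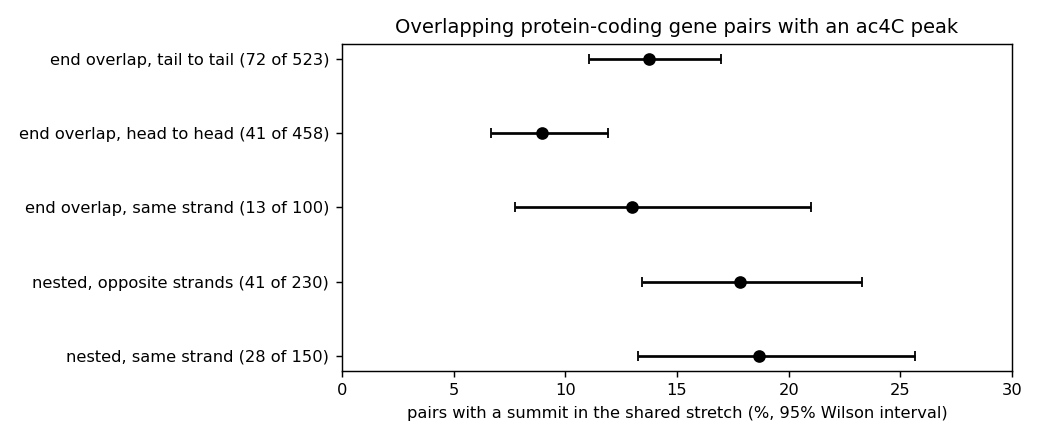
Share of all overlapping protein-coding gene pairs of known strand whose shared stretch held a peak summit, by arrangement; points are percentages and bars 95% Wilson intervals. Head-to-head pairs stand lowest at 8.95% and same-strand nested pairs highest at 18.7%, and the intervals of neighbouring arrangements overlap.

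Per base the order was different. Tail-to-tail overlaps held 62.1 summits per Mb of shared stretch, head-to-head overlaps 40.8, same-strand end overlaps 34.1, nested genes on opposite strands 32.9 and nested genes on the same strand 11.5. All of these but the same-strand nested genes thus stood above the 19.1 per Mb of single-gene sequence. A tail-to-tail stretch lies at the 3′ ends of both genes by its definition, and the summits lay at a median of 92.3% of the way along the gene. For peaks in 1 gene of known strand the median was 70.1%, and 38.9% of their summits lay in the last 20% of the span.

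For fold enrichment, which is the authors' value for each peak and compares its summit with the caller's background, the 408 peaks centred on 5.08, the median, with quartiles at 3.99 and 6.66 and extremes of 1.68 and 18.5. Peaks in 1 gene had a median of 5.57 (4.32 to 7.33) and reached 56.3. A fold enrichment of at least 10 was found in 27 of the 408 peaks (6.62%, 4.59 to 9.46%), where the share over all peaks was 10.02%. The interval ends below 10.02% but overlaps that of peaks in 1 gene (9.47%, 9.07 to 9.89%). When any base of the peak was allowed to lie in both genes, the share was 36 of 446 (8.07%, 5.89 to 10.97%), an interval that holds 10.02%. Without predicted gene models it was 19 of 336 (5.65%, 3.65 to 8.66%), an interval that ends below 10.02%. A lower share was thus not resolved under every setting. The highest of the 408 peaks ranked 234 in the whole list. Behind each summit stood a median of 20 fragments (12 to 32) over a median background of 2.73, against 22 fragments and 2.63 for peaks in 1 gene. Counting error of the immunoprecipitation alone gave the median peak a 95% interval from 62.9% to 152% of its fold enrichment.

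By arrangement, the median fold enrichment was 5.09 at end overlaps, 5.10 in nested genes and 3.76 in sets of 3 or more genes. Head-to-head peaks stood higher, with a median of 5.83 and quartiles of 4.86 and 8.66, than tail-to-tail peaks, with 4.70 and quartiles of 3.44 and 5.82. At least 10-fold enrichment was found in 7 of 39 head-to-head peaks (17.9%, 8.98 to 32.7%) and in 2 of 97 tail-to-tail peaks (2.06%, 0.567 to 7.21%), beside 10.02% of all peaks. These 2 intervals did not overlap, but they treat peaks as independent. The 97 tail-to-tail peaks came from 70 pairs, and all peaks from a single immunoprecipitated library, so a difference between arrangements was not tested. The background moved with this. Its median was 1.60 fragments at head-to-head and 5.25 at tail-to-tail peaks, and its part in the difference was not tested.

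**Figure D2:**
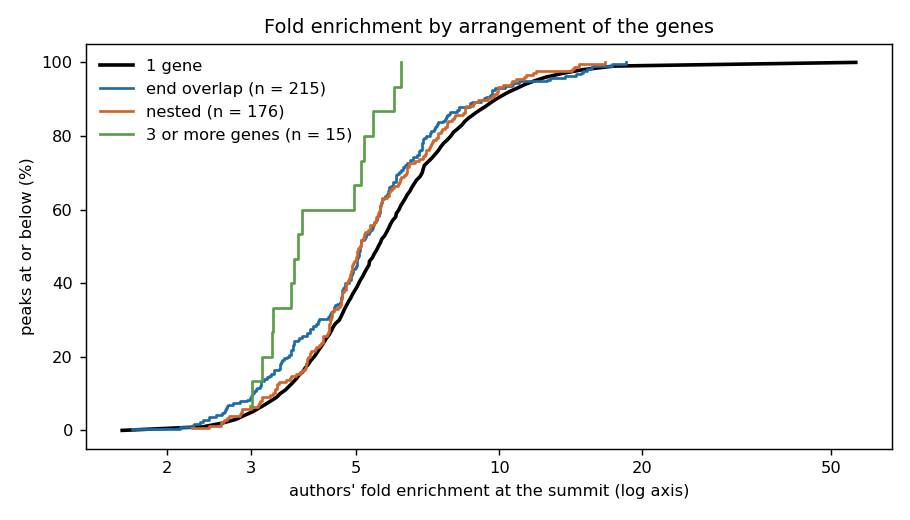
Cumulative share of peaks (percent) against the authors' fold enrichment on a log axis, for peaks in 1 protein-coding gene (black) and for 3 arrangements of overlapping genes (colours); the 2 peaks of Chtf8/Derpc are not drawn. The end overlap and nested curves have medians of 5.09 and 5.10 and lie left of the single-gene curve at 5.57, and the curve of 3 or more genes ends at 6.21.

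Peak width was much the same. The median was 337.5 bp (interquartile range 230.75 to 501.75 bp) against 314 bp (229 to 475.25 bp) in single genes, and the range was 200 to 2981 bp. Peaks of at least 1000 bp numbered 23 (5.64%, 3.79 to 8.32%), beside 5.50% of all peaks. The narrowest width of 200 bp was shared by 30 peaks (7.35%), against 7.96% of all peaks. Nested peaks had a median of 342 bp, end overlaps 326 bp and tail-to-tail peaks 294 bp. In 370 cases the whole peak fitted inside the shared stretch, and in 38 it reached beyond. In those 38 a median of 66.4% of the peak was shared.

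The start sites of the genes set the arrangements apart further. With a promoter entry for at least 1 gene, 99 of 370 summits (26.8%, 22.5 to 31.5%) lay within 1000 bp of a start of either gene, against 1886 of 15514 (12.2%, 11.7 to 12.7%) for summits in 1 gene, which has fewer starts to be near. Head-to-head summits lay near a start in 36 of 39 cases, and tail-to-tail summits in 1 of 97. A head-to-head stretch is bounded by the span starts of both genes, though some were long, such as the 55994 bp of Rundc3b/Abcb1a. For nested genes on opposite strands the count was 23 of 86 (26.7%), and on the same strand 15 of 37 (40.5%).

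**Figure D3:**
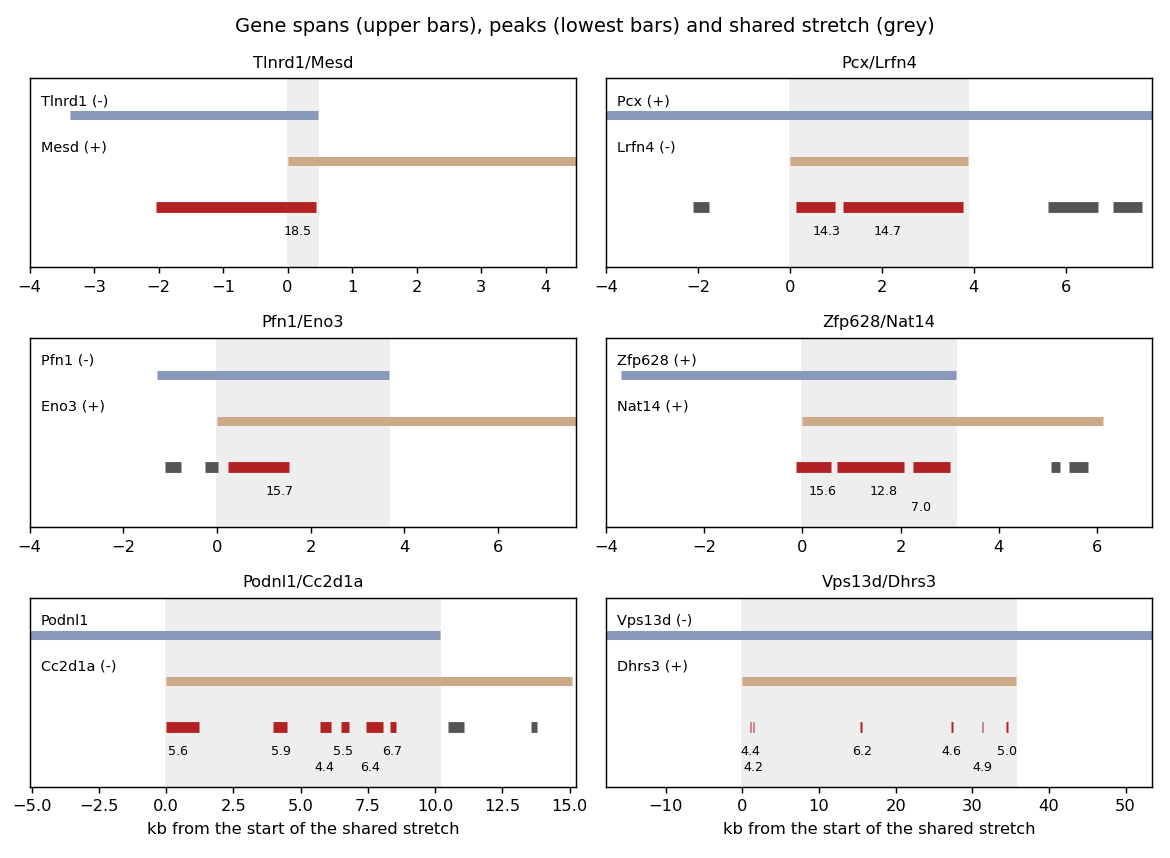
Spans of both genes (upper bars, with strand where known), peaks (lowest bars; red with the summit in the shared stretch, dark grey elsewhere) and shared stretch (light grey) for 6 pairs, in kb from the start of the shared stretch, with long genes cut at the panel edge. Numbers are the fold enrichment of peaks in the shared stretch; the Tlnrd1/Mesd peak, at 18.5, runs far into Tlnrd1, while both Lrfn4 peaks, at 14.3 and 14.7, lie wholly inside Lrfn4.

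The peak with the greatest fold enrichment belonged to Tlnrd1/Mesd, 2 genes that start inside each other on chromosome 7. Tlnrd1 (NCBI gene 80889) encodes a protein with a talin rod domain, and Mesd (NCBI gene 67943) a chaperone that LRP receptors need to leave the endoplasmic reticulum. The peak, from 83881832 to 83884313, stood at 18.5-fold (95% interval 14.4 to 23.4) on 66 fragments. It was 2482 bp wide, and only 18.1% of it lay in the 476 bp that both genes share, with the rest inside Tlnrd1 alone. Neither gene held another peak. The Mesd window printed above lies inside this peak.

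Other head-to-head pairs followed among the 12 highest peaks. Pfn1 (NCBI gene 18643), which encodes the actin-monomer binding protein profilin, overlaps the start of Eno3 (NCBI gene 13808), the muscle form of the glycolytic enzyme enolase. Their peak on chromosome 11, 70653358 to 70654659, stood at 15.7-fold (12.4 to 19.6) on 74 fragments, 190 bp after a Pfn1 start. Pfn1 held 2 peaks of its own and Eno3 none. Srsf2 (NCBI gene 20382), a splicing factor of the SR family, and Mfsd11 (NCBI gene 69900) shared a peak at 15.0-fold (11.9 to 18.7) on 78 fragments, on chromosome 11 from 116851977 to 116853062. Neither had a peak elsewhere. Erbin (NCBI gene 59079), which encodes a protein that binds the receptor ERBB2, shared its peak at 14.5-fold (10.8 to 19.1) with the gene model D130037M23Rik, on chromosome 13 from 103920268 to 103921120. Of its 853 bp, 37.4% lay in the overlap.

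End overlaps not classed as head to head made up 4 more of the 12 highest peaks. Among them, Soga1/Tldc2 and Dap3/Ash1l lacked the strand of at least 1 gene, so their orientation was not known. Soga1/Tldc2 stood at 17.3-fold (11.6 to 24.8) on chromosome 2, 157078329 to 157079154, and Soga1 held 6 peaks of its own. Zfp628/Nat14 lie on the same strand of chromosome 7, with the end of the zinc finger gene Zfp628 overlapping the start of the Nat14 span. Their 3127 bp of shared sequence held 3 peaks, at 15.6-fold (11.4 to 21.0), 12.8-fold (8.31 to 18.9) and 7.02-fold (4.05 to 11.5), of 703, 1371 and 757 bp. Zfp628 had no peak outside that stretch and Nat14 had 2. Wipf3/Scrn1, tail to tail on chromosome 6, stood at 15.3-fold (9.74 to 23.0) on 21 fragments, in a peak of 314 bp. Dap3/Ash1l, on chromosome 3 from 88950651 to 88951025, stood at 14.9-fold (10.5 to 20.5). Dap3 encodes a protein of the mitochondrial ribosome and Ash1l a histone methyltransferase, and both held peaks of their own.

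Nested genes held the remaining 4, including 1 peak of Gm16867/Gm21451 at 14.3-fold (9.03 to 21.8). The gene model Gm52799 lies inside Cnot6l (NCBI gene 231464), which encodes a deadenylase of the CCR4-NOT complex, on the opposite strand of chromosome 5. The peak there, 96162164 to 96162545, stood at 16.7-fold (11.7 to 23.2). Lrfn4 (NCBI gene 225875), which encodes a leucine-rich repeat adhesion protein, lies inside Pcx (NCBI gene 18563), the gene of the mitochondrial enzyme pyruvate carboxylase, on the opposite strand of chromosome 19. Its 3884 bp held 2 peaks, at 14.7-fold (10.5 to 20.02) over 2604 bp and at 14.3-fold (9.89 to 19.96) over 851 bp. Pcx held 12 further peaks in the remaining 107397 bp. That is 0.515 peaks per kb over Lrfn4 and 0.112 per kb over the rest of Pcx. The pair was named for its peaks in Lrfn4, so this contrast cannot show that nested genes are denser in peaks. The intervals of all 12 highest peaks overlapped each other, so their order is not resolved.

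**Figure D4:**
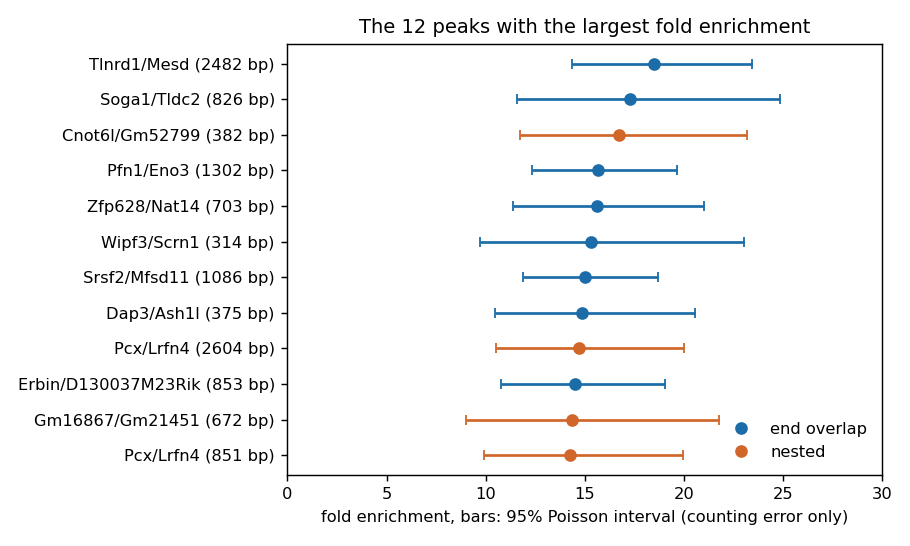
The 12 peaks with the largest fold enrichment among the 408, with peak width in brackets; points are the authors' fold enrichment, bars the 95% Poisson interval of the recovered fragment number, colours the arrangement. Values run from 14.3 to 18.5 and every interval overlaps every other.

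The combination with most peaks, 9, was Gm16867/Gm21451 on chromosome 14, between 69390911 and 69476183. Gm21451, 87037 bp long, is nested in Gm16867, and no summit lay in the stretch of Gm16867 alone. The 9 values ran from 4.26 to 14.3, with a median of 6.40, on 8 to 27 fragments. Pkd1l1/Gm40814 followed with 7 peaks on chromosome 11. All 7 lay in the 8424 bp of the nested model Gm40814, at 0.831 peaks per kb, while the other 140590 bp of Pkd1l1, a polycystin gene known for its role in left-right asymmetry, held 0. The pair was named for its number of shared peaks, so the contrast with the rest of Pkd1l1 rests on that choice. The fold enrichment of the 7 peaks ran from 3.01 to 9.88, and the widest of the 408 peaks, 2981 bp, was among them. Whether reads map to these predicted models alone was not tested.

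Pairs of described genes with many peaks were Tmem255b/Gas6, Podnl1/Cc2d1a, Vps13d/Dhrs3, Tmem208/Fhod1, Macrod1/Flrt1 and Ggnbp1/Bak1. Gas6 (a ligand of the TAM receptor tyrosine kinases) overlaps the tail of Tmem255b on chromosome 8 by 28061 bp, nearly all of its own length of 29162 bp. The 7 peaks there were narrow, 204 to 355 bp, and stood at 3.24 to 7.20-fold. A further peak lay in the 1101 bp of Gas6 outside Tmem255b, and the 30261 bp of Tmem255b outside Gas6 held 0. Podnl1, which encodes a leucine-rich proteoglycan, and Cc2d1a shared 6 peaks at 4.43 to 6.71-fold over 10164 bp, and 2 more lay in Cc2d1a alone. The formin gene Fhod1 shared 5 peaks with Tmem208 at 3.76 to 7.87-fold and held 4 of its own.

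Dhrs3, which encodes a reductase that turns retinaldehyde to retinol, is nested in Vps13d, a gene for a lipid transfer protein, on the opposite strand of chromosome 4. All 6 peaks of the pair stood between 4.21 and 6.18-fold and were 202 to 316 bp wide. Over the 35676 bp of Dhrs3 this is 0.168 peaks per kb, against 4 peaks in the other 288317 bp of Vps13d. Flrt1, an adhesion protein gene, is nested in Macrod1 on chromosome 19 and held 5 peaks at 4.70 to 7.01-fold, while the rest of Macrod1 held 0. Bak1, a promoter of apoptosis of the BCL2 family, lies inside the span of Ggnbp1 on chromosome 17. Its 8816 bp held 4 peaks, at 5.62, 7.03, 8.82 and 10.6-fold, and the rest of Ggnbp1 held 0. These pairs were named for their number of shared peaks, so the contrasts between inner gene and host rest on that choice.

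The 96 nested pairs with a peak can be described by the inner gene and the rest of its host. The inner spans, 2010 kb in all with a median of 6620.5 bp, held 176 summits, or 0.0876 per kb. The 89 hosts, with a median span of 51469 bp over the pairs, held 209 further summits in 8615 kb that was theirs alone, or 0.0243 per kb. Every pair entered for a summit in its inner stretch, so the higher density there is set by that choice and shows nothing about nested genes. Over all 617 nested pairs of the gene table, with or without a peak, the inner stretches held 20.2 summits per Mb, beside 19.1 per Mb of single-gene sequence. In 47 of the 96 pairs the host held no peak outside the inner gene. Along the inner gene the summits had a median position of 62.0% from the start, and 33.1% (25.8 to 41.3%) lay in the last 20%.

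The clustered protocadherins made up most of the sets of 3 or more genes. Protocadherins are cell adhesion proteins, and in the gamma cluster each first exon codes for a different outer part while the last exons are shared by all members. On chromosome 18, 13 peaks had summits in the beta and gamma clusters, between 37486649 and 37841411, in 9 combinations of 4 to 24 genes. The gene models Gm37013, Gm38666 and Gm38667 span the region and belong to every combination, so no beta or gamma protocadherin summit was in a single gene. Of 22 beta genes, Pcdhb17 and Pcdhb22 held a summit each, and the alpha cluster of 14 genes held 0. The other 11 summits lay in the gamma cluster of 21 genes. The median fold enrichment of the 13 was 3.76, from 3.02 to 6.0, with 0 of at least 10-fold.

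The 11 summits of the gamma cluster lay at various distances from the starts of its spans, and 2 of them were within 1000 bp of the last start before the summit. For 7 of the 11, the span that began last before the summit was that of Pcdhgb5, Pcdhga9, Pcdhgb6, Pcdhga12 or Pcdhgc3, and the summit lay 800, 820, 1433, 1898, 2480, 1362 and 2013 bp after that start. A summit at Pcdhgc5 lay 1355 bp after its start, and another at Pcdhga5 lay 9042 bp after. The remaining 2 lay 1957 and 462 bp before the shared end of the cluster. The highest value was at Pcdhgc3, with 6.0-fold (4.57 to 7.74) on 57 fragments over 795 bp. Next to it a second Pcdhgc3 peak stood at 3.33-fold (2.45 to 4.41), with an interval below the first. The peaks by the shared end stood at 5.11-fold (3.67 to 6.94) and 3.02-fold (2.17 to 4.10).

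**Figure D5:**
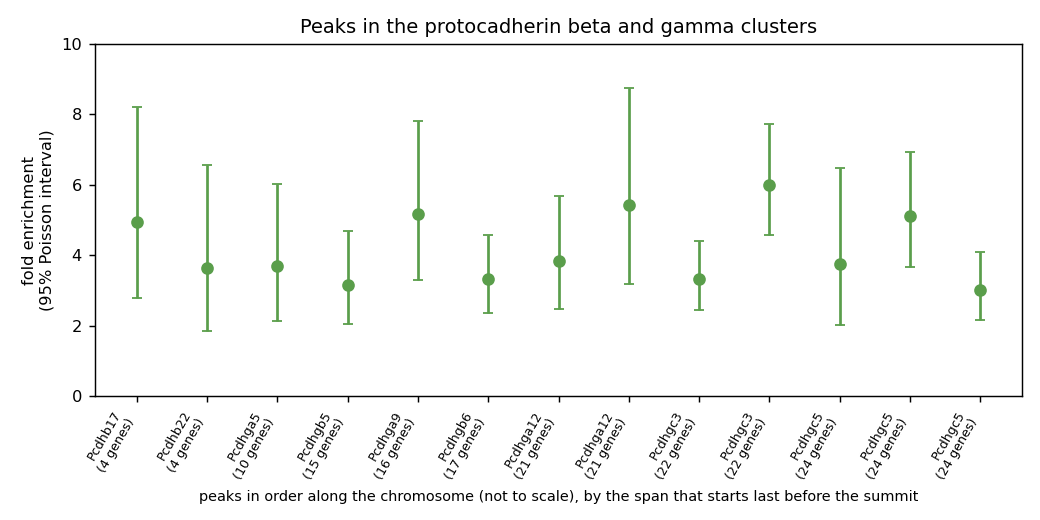
Fold enrichment of the 13 protocadherin peaks in order along the chromosome, with 95% Poisson intervals, labelled by the span that starts last before the summit and the number of spans at the summit. Values run from 3.02 to 6.0, and the interval of the first Pcdhgc3 peak (3.33) ends below that of the second (6.0).

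Hox genes, transcription factors that pattern the body axis and the reproductive tract, gave 4 nested combinations with 7 peaks. In each the host was Hoxa3, Hoxb3 or Hoxd3, all with long spans. Hoxb3/Hoxb4 on chromosome 11 stood at 8.49-fold (5.89 to 11.9) and 5.67-fold (3.74 to 8.26). Hoxa3/Hoxa5 and Hoxa3/Hoxa6 on chromosome 6 had a peak each, at 4.84-fold (2.47 to 8.74) and 4.76-fold (2.51 to 8.38), on 9 and 10 fragments. Hoxd3/Hoxd4 on chromosome 2 had 3 peaks, at 3.85, 3.17 and 2.87-fold, on 28 to 41 fragments. The higher of the Hoxb peaks had an interval above those of all 3 Hoxd peaks. Hoxb3, Hoxa3 and Hoxd3 also held 4, 2 and 5 peaks that were theirs alone. The Ugt1a cluster, another family with shared last exons, held 0 of the 408 peaks.

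Among 37 genes with known parts in implantation, 2 overlap another protein-coding gene outside the protocadherins, and only Acvr1 held a peak in shared sequence. Acvr1 (NCBI gene 11477), a type I receptor for bone morphogenetic proteins, and the uridine phosphorylase gene Upp2 (NCBI gene 76654) start head to head on chromosome 2. Their single peak, 58566508 to 58566707, had the smallest width of 200 bp and stood at 5.36-fold (2.74 to 9.69) on 9 fragments. It lay 223 bp after a start of Acvr1, and neither gene had another peak.

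Chtf8/Derpc, with identical spans of 9731 bp on chromosome 8, had 2 peaks at 4.27-fold (2.42 to 7.09) and 3.27-fold (2.45 to 4.28). Outside the protocadherins, sets of 3 genes held 2 peaks. Atf5/Nup62/Il4i1b, with the transcription factor gene Atf5 and the nucleoporin gene Nup62, stood at 6.21-fold (3.65 to 9.99) in 289 bp of sequence shared by all 3. Ncaph2/Sco2/Tymp, named after its values were seen, stood at 2.99-fold (1.86 to 4.58). They rested on 15 and 19 fragments.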

How the data were processed

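The 2 libraries, 1 ac4C immunoprecipitation and 1 input control, were grouped by their titles. Per the submitters' processing notes, HISAT2 2.2.1, MACS3 3.0.0a7 and build mm10 were used, with parameters not given in the sources used here. The authors deposited 1 peak list. Its fold enrichment (a ratio), −log10 p-value, −log10 q-value and score were calculated by the authors' peak caller in the authors' deposited table, and its other columns hold positions in bp. The largest q-value was 0.0499. Read totals were not used here.

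Summits were set against the spans of 21900 protein-coding genes of RefSeq GRCm38.p6, the same build as mm10. Exon positions were not used here. The fragment number at each summit was recovered as the whole number for which fold (with a pseudocount of 1) and Poisson p-value both matched, which held for 21192 of 21192 peaks within a relative miss of 1e-04. On 2000 simulated peaks this returned 99.95% right. Fold intervals are exact Poisson intervals with the background taken as known, and shares have 95% Wilson intervals. Both cover counting error only, and PCR copies could not be told apart. Starts and strands came from the RefSeq promoter table (250 bases before and 50 after a start). Python 3.11.15, pandas 2.3.3 and scipy 1.17.1 were used.

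Named were the 12 peaks of greatest fold, the 8 combinations with most peaks (ties by fold), the leading combinations of each arrangement, protocadherin, Ugt1a and Hox combinations, and genes of an implantation list. The region rule and lists were chosen with earlier results of these data known. Alternatives were a stricter q, a fold filter, any base in place of the summit, no predicted gene models, no sets of 3 or more genes, and a minimum shared length. 1 result is not reported here.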

Additional observations from a re-analysis of the deposited data

How the results depend on the processing

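With a −log10 q of at least 10, 143 of the 408 peaks remained in 110 combinations, 76 at end overlaps and 64 nested, with a median fold of 7.32 and a median width of 457 bp. When peaks under the whole list's median fold were dropped, the numbers were 162 peaks, 134 combinations, 88 and 72, with medians of 7.18 and 385.5 bp. Both filters lower the counts and raise the median fold by construction. Of the peaks that passed, 1.49% and 1.53% lay in overlapping genes, against 1.93% of the whole list. Under any base of the peak in place of the summit (446 peaks), without predicted gene models (336), without sets of 3 or more genes (393) and with shared stretches of at least 200 bp (408), the counts stayed within 1.5 times and the medians within their 95% intervals (4.93 to 5.30 for fold and 309 to 361 bp for width). Within that limit of 1.5 times, nested peaks fell from 176 to 121 without predicted gene models, while end overlaps fell from 215 to 200. Peaks of at least 10-fold numbered 19 there and 36 under any base, against 27 in the main set. Folds of single peaks cannot change under these settings. Without predicted models 9 of the 12 highest peaks stayed in the set. No paired analysis was possible because each group has 1 library. With a median of 20 fragments at the summit, the interval of a typical peak ran from 62.9% to 152% of its fold.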

Other observations

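Some pairs with a gene of known function in the uterus or in smooth muscle were chosen after their values were seen. Timp3, an inhibitor of matrix metalloproteinases, is nested in the span of the synapsin gene Syn3 on chromosome 10. It held 2 peaks, at 7.69-fold (5.48 to 10.5) 384 bp after its start and at 5.30-fold (3.99 to 6.90) 45345 bp after it, while the other 397959 bp of Syn3 alone held 0. Gdf7, a ligand of the bone morphogenetic protein family, meets Ldah tail to tail on chromosome 12. Their 2 peaks stood at 9.67-fold (7.93 to 11.7) and 9.54-fold (7.71 to 11.7) on 106 and 92 fragments, and Gdf7 held 1 more of its own.

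Tagln, which encodes the smooth muscle protein transgelin, shared the deepest summit of the 408 with the proprotein convertase gene Pcsk7 on chromosome 9, on 155 fragments over a background of 43.8. The fold enrichment was 3.48 (2.96 to 4.07) there and 3.04 (2.49 to 3.69) at a second peak on 102 fragments. Wnt5b/Fbxl14 on chromosome 6 had a nested peak of 1581 bp at 5.55-fold (3.64 to 8.15).

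The span of Npcd on chromosome 15 holds both Nptxr and Cbx6, and 3 peaks lay in each. They stood at 5.64, 5.87 and 8.53-fold in Nptxr, a neuronal pentraxin receptor, and at 2.63, 6.64 and 7.21-fold in the Polycomb gene Cbx6, while the stretch of Npcd alone held 0.

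The share of gene peaks at overlaps was 3.98% on chromosome 18 (15 of 377), where 13 of the 15 were the protocadherin peaks, and 0.870% on chromosome 13 (4 of 460).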
